A study of Mus musculus with 5 samples.

Results

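The genes described here are 41 mouse genes of the interferon response and of antigen presentation, read on 4 medulloblastoma arrays and 1 array of P5 cerebellum. P5 was taken to mean postnatal day 5. They were taken by symbol from the platform annotation, and where a gene had several probe sets the brightest over the 5 arrays stands for it. A probe set was found for 40 of the 41, among 18193 named genes on the arrays. Isg15 had no probe set of its own, because the annotation gives its probe set several symbols. Of the 40, 35 had a mean signal of at least 100 and entered the comparison of tumours with cerebellum, as did 14109 genes in all. The other 5 were Gbp2, Psmb9, Isg20, Mx1 and Mx2, and the closest of them to that minimum was Gbp2 with a mean of 99.96.

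Medulloblastoma is a tumour of the cerebellum, and the 4 arrays carry the label of mouse medulloblastoma in total RNA. The series title speaks of Cxcr6 mutant mice and an inhibitor of Smoothened, but no genotype, treatment, strain or tumour age is given for any array, so none of these was compared. The titles of medulloblastomas 1 and 2 carry the prefix ken, and those of the other 3 arrays the prefix hmk. Each array was 1 sample, the cerebellum had no replicate, and tumour and age cannot be told apart in a comparison with it. On the marker list of the granule neuron lineage, from which this kind of tumour can arise, 8 of 8 genes were measured, 2 were called higher in the tumours (Atoh1 and Gabra6) and 0 lower by limma, and 4 were higher and 2 lower at an unadjusted p under 0.05. Pax6, Neurod1 and Zic1 lay below the cerebellum in all 4 tumours (-1.02, -0.81 and -0.40 on the log2 scale), and the summed signal was 48243 to 53315 in the tumours and 47394 in the cerebellum.

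Interferons are secreted proteins that warn cells of infection. Type I interferons act through the receptor chains Ifnar1 and Ifnar2, the kinases Jak1 and Tyk2 and a complex that contains Stat2 and Irf9, which binds the interferon-stimulated response element (ISRE) in the promoters of induced genes. Interferon gamma acts through a separate receptor and the gamma-activated site (GAS). The induced genes block viral replication and raise the cutting, transport and display of peptides on major histocompatibility complex (MHC) class I molecules. In brain, the basal level of class I and class II genes is low in neurons and higher in microglia and vessels.

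Signals are deposited intensities on a linear scale, and every difference below is a difference of log2(signal + 32), which understates the change of dim genes. Among the 35 members tested, 27 (77.1%) had a mean signal between 100 and 500, against 45.5% of all genes tested, so most of these genes were dim. The median signal of all probe sets was 191 to 213 in the tumours and 232 in the cerebellum. Probe sets at the 3' and 5' ends of actin and Gapdh, whose ratio reflects how intact the RNA was, gave the highest ratios in medulloblastoma 1, 1.45 and 0.946. Elsewhere they were 1.21 to 1.35 for actin and 0.731 to 0.824 for Gapdh. What part these ratios have in the results for medulloblastoma 1 was not tested.

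Class I genes (B2m, H2-K1 and H2-D1), the class II chaperone gene Cd74 and the effector gene Ifit2 lay above the cerebellum in every tumour, while most members differed from tumour to tumour with medulloblastoma 1 on top. No member passed the threshold in either direction (limma, Benjamini-Hochberg adjusted p under 0.05 over all genes tested), where 0.312% of all genes were called higher and 0.177% lower. At an unadjusted p under 0.05, 6 members were higher and 1 lower, against 7.72% and 7.44% of all genes. The 6 were Ifit2, Ifitm3, B2m, H2-K1, H2-D1 and Cd74, and the 1 was Tap2. All 4 tumours lay above the cerebellum for 12 members (34.3%; 25.1% of all genes) and below it for 5 (14.3%; 30.8% of all genes). The 12 were Irf8, Irf9, Ifit2, Bst2, Ifitm3, Ifi27, Ifi35, B2m, H2-K1, H2-D1, Psmb8 and Cd74, and the 5 were Trim25, Eif2ak2, Oas1a, Tap2 and Psmb10. At least 2-fold above in all 4 were 3, Ifit2, Ifi27 and Cd74 (8.57%; 2.01% of all genes), and at least 2-fold below was Tap2 (2.86%; 2.63% of all genes). Tap2 reached the signal minimum only through the cerebellum, which bears on each count that includes it. Conversely, Ifit2, Bst2, Psmb8 and Ifih1 reached it only through the tumours. Their cerebellum signals of 66.6, 38.1, 34.1 and 48.8 lay under that minimum, which bears on each count above the cerebellum that includes them. After scaling to equal medians 2 members lay below in all 4, and this scaling shifted the median over all genes from -0.07 to 0.12. The median difference of the members was -0.12, and it was 0.19 after quantile normalization, so it has no settled sign. Median differences in medulloblastomas 1 to 4 were 0.63, -0.14, 0.15 and -0.16, where those of all genes tested lay between -0.07 and -0.04.

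Without medulloblastoma 1, 3 members were called higher, Ifit2 (adjusted p = 0.00928, limma), B2m (0.0243) and Cd74 (0.0244), where 3.18% of all genes were called higher and 2.71% lower. On the hmk arrays alone, which set 2 tumours against the cerebellum, 4 were called higher (11.4%; 5.93% of all genes, with 5.96% called lower): the same 3 and H2-K1 (adjusted p = 0.0131, limma). In that fit the spread is that of medulloblastomas 3 and 4 alone. With any other tumour left out, and in the fit of the ken tumours against the cerebellum, 0 members were called.

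**Figure D1:**
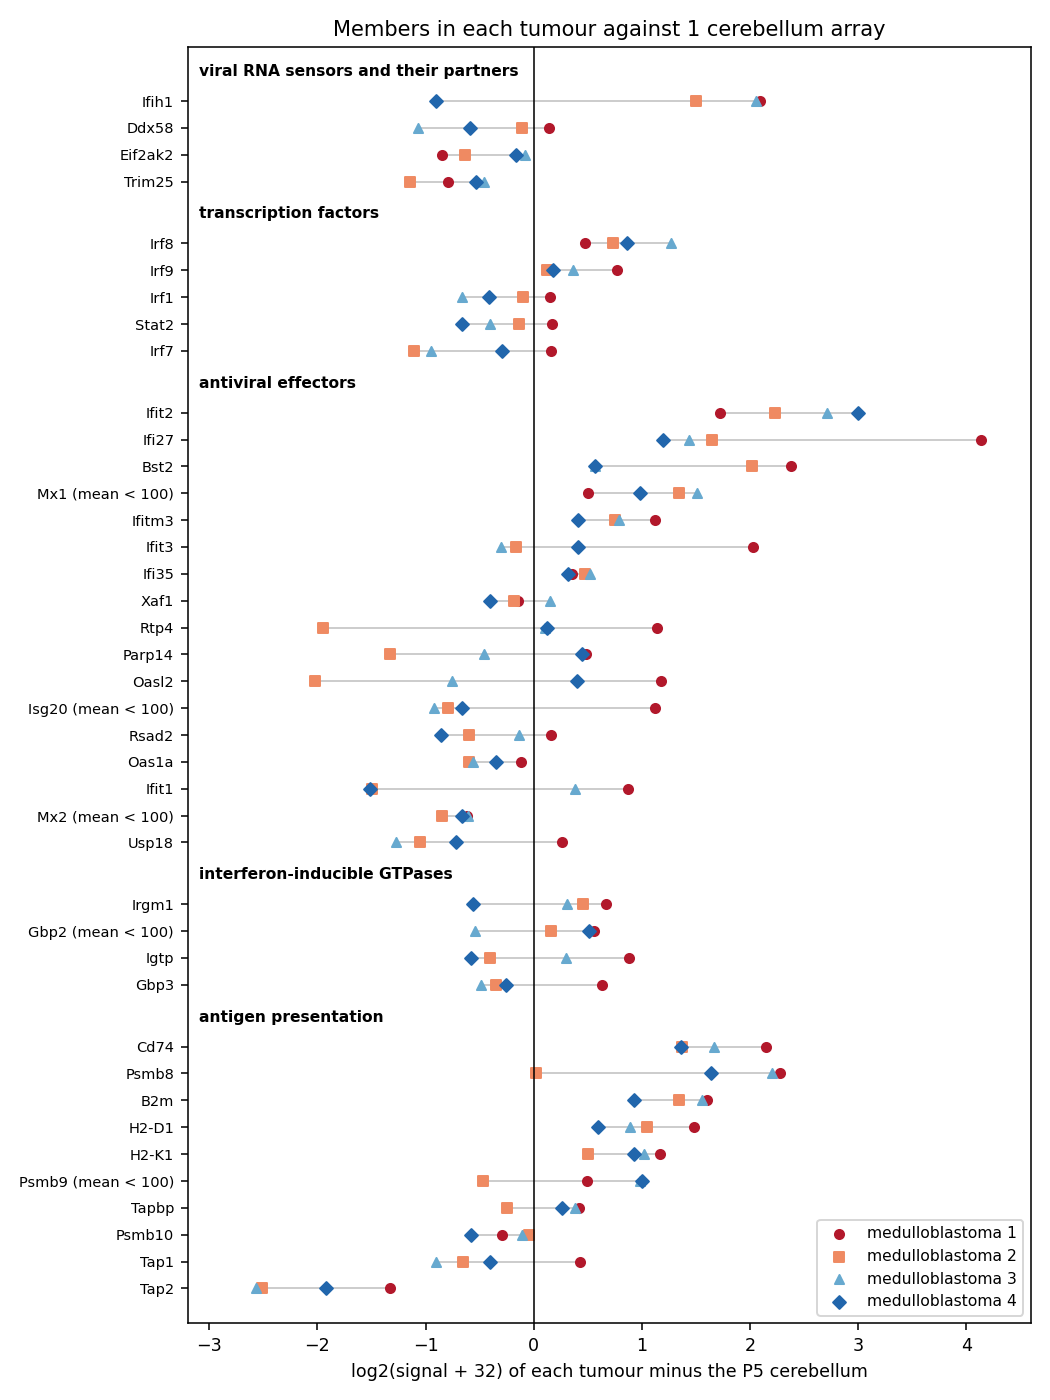
Difference of log2(signal + 32) between each tumour and the single P5 cerebellum array for the 40 members with a probe set, grouped by role; each point is 1 tumour, the grey line spans the 4 tumours, and the vertical line marks the cerebellum. Cd74, B2m, H2-D1 and H2-K1 lie to the right of the line in all 4 tumours, and the point of medulloblastoma 1 is the rightmost for most genes.

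The highest of the 4 tumour signals fell in medulloblastoma 1 for 28 of the 35 members tested (80%), against 30.9% of all genes tested. It fell in medulloblastoma 3 for 5 members, in medulloblastoma 2 for 1 and in medulloblastoma 4 for 1, where the shares of all genes were 23.8%, 20.6% and 24.8%. Among genes with a mean signal between 100 and 500 the share for medulloblastoma 1 was 74.1% of 27 members and 27.6% of 6413 genes, and for medulloblastomas 2, 3 and 4 it was 21.5%, 21.5% and 29.4% of those genes. The 7 members not highest there were Trim25, Eif2ak2, Irf8, Ifit2, Ifi35, Xaf1 and Psmb10. The count was 25 of 36 members (69.4%; 32% of all genes) with equal medians and 28 of 37 (75.7%; 30.4% of all genes) after quantile normalization. With the probe sets of each gene averaged it was 24 of 31 (77.4%; 28.9% of all genes), and with no filter on low signals 30 of 40 (75%; 29.6% of all genes). Among the 34 probe sets of the members that were not the brightest of their gene, 16 had their highest tumour signal in medulloblastoma 1 (47.1%; 26.1% of all such probe sets), as had 8 of the 16 with a mean signal of at least 100 (50%; 26.5%). The size of the gap varied: 3 members, Ifi27, Ifit3 and Rtp4, were at least 2-fold above each of the other tumours there (8.57%; 2.08% of all genes). No member was that far above the rest in medulloblastoma 2, 3 or 4 (0.135%, 0.298% and 0.51% of all genes). Rtp4, Oasl2, Ifit1 and Parp14 reached the signal minimum only through medulloblastoma 1, which bears on each count for that tumour. With 1 array for each tumour there is no test of these shares.

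For 8 members medulloblastoma 1 lay above the cerebellum and the other 3 tumours below it (22.9%; 7.07% of all genes). The same pattern led by medulloblastoma 2, 3 or 4 held for 0, 1 and 0 members (2.65%, 2.76% and 3.55% of all genes). The 8, on their brightest probe sets, were Ddx58, Stat2, Irf1, Irf7, Usp18, Rsad2, Gbp3 and Tap1, and in each of them medulloblastoma 1 was within 0.63 of the cerebellum on the log2 scale. At least 2-fold above the cerebellum were 13 members in medulloblastoma 1 (37.1%; 5.75% of all genes), 7 in medulloblastoma 2 (20%; 6.38%), 8 in medulloblastoma 3 (22.9%; 7.81%) and 4 in medulloblastoma 4 (11.4%; 8.43%). At least 2-fold below it were 1, 8, 3 and 2 members in medulloblastomas 1 to 4, where the shares of all genes were 9.59%, 9.53%, 13.5% and 12.5%.

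**Figure D2:**
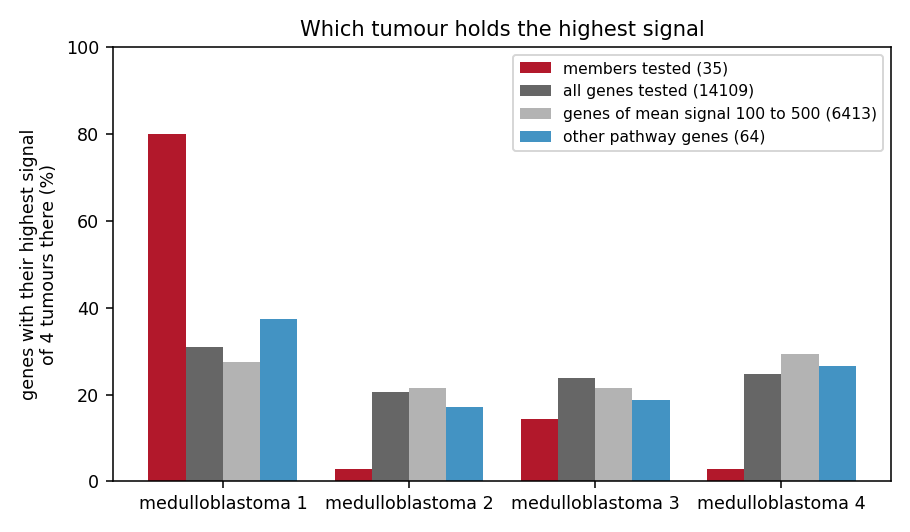
Share of genes, in percent, whose highest signal among the 4 tumours fell in each tumour, for the 35 members tested, all 14109 genes tested, the 6413 genes with a mean signal of 100 to 500 and the 64 other pathway genes tested. The share of members is 80% in medulloblastoma 1, where that of all genes is 30.9%.

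The RNA helicases Ddx58, which encodes RIG-I, and Ifih1, which encodes MDA5, detect viral RNA in the cytoplasm. Ddx58 read 501, 417, 198 and 290.3 in medulloblastomas 1 to 4 and 453 in the cerebellum, a difference of -0.41 ± 0.48 (SE; adjusted p = 0.709, limma), and the groups overlapped. Ifih1 read 313, 197, 305 and 11.4 against 48.8, so that 3 tumours lay above the cerebellum and medulloblastoma 4 below it (1.19 ± 1.10, adjusted p = 0.625, limma). The signal of medulloblastoma 4 was more than 2-fold below each of the other tumours, the only such gap among the members in that tumour (2.86%; 1.38% of all genes). Trim25, a ubiquitin ligase that activates RIG-I, and Eif2ak2, the kinase PKR that halts translation when it binds double-stranded RNA, both lay below the cerebellum in all 4 tumours. Trim25 read 129.7, 94.2, 171 and 161 against 247 (-0.73 ± 0.51), and Eif2ak2 read 115, 138, 218 and 205 against 233 (-0.43 ± 0.50). The other probe sets of Eif2ak2 differed by -1.03 and, for the dimmest, 0.25.

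Among the transcription factors, Stat2 and Irf9 are parts of the complex that binds the ISRE. Stat2 read 566, 451, 372 and 306 against 501 (-0.26 ± 0.38), with medulloblastoma 1 alone above the cerebellum. Its second probe set went the other way, at 262, 260.4, 180.5 and 269 against 118 (0.86), so no direction is given for Stat2. Irf9 read 606, 375, 447 and 392 against 342 (0.36 ± 0.35), above the cerebellum in every tumour but not called (adjusted p = 0.648, limma). Irf1, a factor induced by interferon gamma, read 784, 651, 432 and 521 against 701. Irf7, which amplifies the type I response, read 440.1, 164, 187 and 313 against 391. In both genes medulloblastoma 1 was the only tumour above the cerebellum.

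Irf8, a factor that myeloid cells such as microglia require, had a different order. It read 239, 293, 442 and 325 against 164 (0.83 ± 0.41, adjusted p = 0.378, limma), above the cerebellum in every tumour and lowest of the tumours in medulloblastoma 1. On its second, dimmer probe set medulloblastoma 1 was the highest, at 239.7 against 51.5, 61.8 and 165, so the order of the tumours is not settled, whereas all 4 lay above the cerebellum (31.3) there too.

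Ifi27, a gene strongly induced by type I interferon, stood further above the next tumour than any other member tested. Medulloblastoma 1 read 2474 and the other 3 read 413, 352 and 294, with the cerebellum at 110.0 (2.11 ± 0.98, adjusted p = 0.358, limma). Medulloblastoma 1 was 2.49 above the next tumour on the log2 scale, and the other 3 still lay above the cerebellum by 1.20 to 1.65. The second probe set of Ifi27 had the same tumour on top with a smaller gap, at 1290 against 439, 598 and 619.7, and 291 in the cerebellum.

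The Ifit genes encode proteins that bind foreign RNA and block its translation, and they lie close together on chromosome 19. Ifit3 read 795 in medulloblastoma 1, more than 2-fold above the 150.0, 133 and 238 of medulloblastomas 2 to 4, which lay around the cerebellum at 171. Its difference over the 4 tumours was 0.50 ± 0.82, and -0.01 without medulloblastoma 1. Ifit1 read 261, 24.6, 177 and 24.2 against 128.5, so medulloblastomas 1 and 3 were above the cerebellum and medulloblastomas 2 and 4 below it. Ifit2 had a different order of tumours: it read 293, 430.0, 613 and 754 against 66.6, lowest of the tumours in medulloblastoma 1. All 4 tumours lay at least 2-fold above the cerebellum, by 1.72 to 3.0, and the difference was 2.41 ± 0.49 (adjusted p = 0.1, limma). Each of these 3 genes has a single probe set on the array.

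Rtp4, Oasl2 and Parp14 encode induced antiviral proteins. On their brightest probe sets these genes were highest of the tumours in medulloblastoma 1 and lowest in medulloblastoma 2. Rtp4 read 299, 6.91, 129 and 131 against 119, with medulloblastoma 1 above the cerebellum, medulloblastomas 3 and 4 at its level and medulloblastoma 2 far below. Oasl2 read 328, 6.98, 61.9 and 178 against 127, and Parp14 read 176, 27.2, 76.7 and 172 against 117, with medulloblastoma 4 almost level with medulloblastoma 1. In medulloblastoma 2, 3 members, Rtp4, Oasl2 and Psmb8, were at least 2-fold below each of the other tumours (8.57%; 0.73% of all genes), but 0 were when the added constant was 4 times as large. In medulloblastomas 1 and 3 no member was that far below the rest (2.66% and 1.7% of all genes). The signals of 6.91 and 6.98 are below the constant of 32, so the size of these gaps depends on it. A dimmer second probe set of Rtp4 read 11, 55.6, 24.5 and 57.2 against 18.9, with medulloblastoma 1 the lowest. That of Parp14, also dimmer, read 30.9, 50.3, 25 and 148 against 21.1, with medulloblastoma 4 the highest and medulloblastoma 3 the lowest.

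Usp18, a protease that removes Isg15 from proteins and restrains the interferon receptor, read 317, 109, 88.9 and 145 against 259. Rsad2, which encodes the antiviral enzyme viperin, read 295, 161, 232 and 129 against 260.1. Oas1a, an enzyme that activates RNase L when it meets double-stranded RNA, read 515, 361, 371 and 436 against 563 and was the only effector tested that lay below the cerebellum in all 4 tumours. On these probe sets medulloblastoma 1 was the highest tumour in each of the 3 genes, and its distance from the cerebellum was at most 0.26 on the log2 scale. A second probe set of Rsad2, almost as bright, read 197 in medulloblastoma 1, at most 133 in medulloblastomas 2 and 3 and 208 in medulloblastoma 4, against 326, with medulloblastoma 4 the highest and all 4 tumours below the cerebellum. With the mean of all its probe sets Rsad2 differed by -0.93, in place of -0.36.

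Bst2, which encodes tetherin, a membrane protein that holds budding virus on the cell, split the tumours by title prefix. It read 333 and 251 in the ken tumours and 71.9 and 72.3 in the hmk tumours, against 38.1 in the cerebellum (1.38 ± 0.84, adjusted p = 0.461, limma). All 4 lay above the cerebellum, the hmk tumours by 0.57 each. Across the members, both ken tumours were above both hmk tumours for 7 (20%; 23.3% of all genes) and below them for 4 (11.4%; 21.5% of all genes), shares no larger than those of all genes.

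Ifitm3, which blocks the entry of virus into cells and is also expressed without interferon in many tissues, read 2878, 2209, 2272 and 1743 against 1305. It was above the cerebellum in every tumour (0.77 ± 0.29, adjusted p = 0.284, limma). Ifi35 read 283, 310.1, 322 and 275 against 214 and had the smallest SD among the tumours of all members tested, 0.10 on the log2 scale. That evenness holds for this probe set only. A second one read 334, 142, 191 and 145 against 134, with medulloblastoma 1 the highest. The dimmest read 40.8, 51, 180.4 and 53.6 against 32.3. On each of them all 4 tumours lay above the cerebellum. Xaf1, an induced gene that favours cell death, read 252, 245, 318 and 207 against 283, within 0.40 of the cerebellum in each tumour. Its second probe set read 198, 86.8, 165 and 175 against 152. There medulloblastoma 1 was the highest and only medulloblastoma 2 lay below the cerebellum.

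A further 3 effectors were too dim to test. Isg20, an RNA exonuclease, read 184 in medulloblastoma 1 and 25.4, 20.4 and 30.7 in the others, against 67.4. The dynamin-like GTPase gene Mx1 read 29.9, 78.8, 93 and 54.7 against 11.9, and Mx2 read between 10.8 and 18.4 in the tumours against 45.1. Detection calls were not used here, so how far these signals lie above background is not given.

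**Figure D3:**
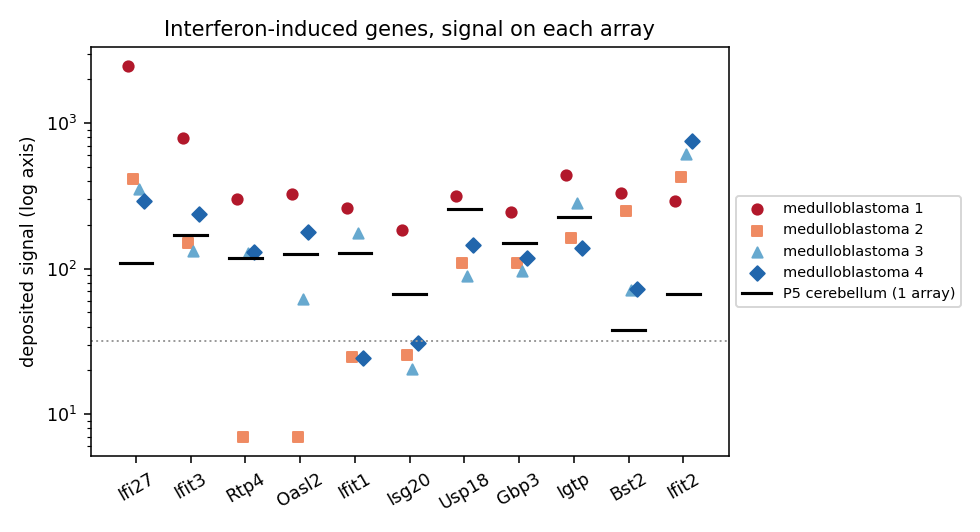
Deposited signal (log axis) of 11 interferon-induced members on each array; points are the 4 tumours, the black bar is the single P5 cerebellum array, and the dotted line marks the constant of 32 added before taking logs. Medulloblastoma 1 is the highest point for every gene shown except Ifit2, where it is the lowest tumour.

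The GTPases of the Gbp and Irgm families attack vacuoles that hold parasites and bacteria and are induced by interferon gamma. Igtp read 439, 163, 283 and 139 against 225, Gbp3 read 247, 109, 96.7 and 119 against 149, and Irgm1 read 435, 372, 331 and 167 against 261. Medulloblastoma 1 was the highest tumour in all 3 and lay above the cerebellum by 0.63 to 0.88 on the log2 scale. The groups overlapped in each, and the differences over the 4 tumours were 0.05 ± 0.59, -0.12 ± 0.60 and 0.22 ± 0.50. Gbp2, under the signal minimum, read 139, 97, 47.7 and 133 against 83.6.

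Promoters were examined for the 2 elements that interferon signals act through, in the 250 bases before the start of each gene in the RefSeq table of GRCm38.p6, which held 33 of the 41 members. The ISRE core was searched on both strands as GAAA, any 2 bases and GAAA again, and the GAS core as TTCNNNGAA, a palindrome that is the same on both strands. The ISRE core was found in 12 of the 33 members (36.4%), against 936 of 27025 genes in the table (3.46%). The GAS core was found in 9 (27.3%), against 2197 genes (8.13%), and both were found in 3, Bst2, Igtp and Oas1a. A match describes the letters only, and the lack of one says no more than that these letters are not in this window.

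The following 5 promoters are shown because their genes carry the ISRE core and, on the brightest probe set, had their highest tumour signal in medulloblastoma 1. They cover an RNA-binding effector pair, tetherin, a GTPase and the class I light chain. Each is written 5' to 3' along the gene's strand, with bases of a matched core in capitals.
Ifit1, chr19:34640639-34640888, plus strand: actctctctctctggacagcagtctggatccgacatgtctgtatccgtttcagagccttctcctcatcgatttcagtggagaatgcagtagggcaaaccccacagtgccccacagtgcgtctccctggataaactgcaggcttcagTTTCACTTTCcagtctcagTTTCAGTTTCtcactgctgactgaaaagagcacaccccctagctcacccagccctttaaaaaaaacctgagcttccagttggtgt
Ifit3, chr19:34583279-34583528, plus strand: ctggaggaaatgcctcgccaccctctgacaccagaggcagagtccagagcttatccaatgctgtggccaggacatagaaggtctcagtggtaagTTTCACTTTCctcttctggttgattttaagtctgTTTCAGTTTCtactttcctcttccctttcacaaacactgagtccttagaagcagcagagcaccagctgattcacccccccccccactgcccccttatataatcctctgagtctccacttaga
Bst2, chr8:71537473-71537722, minus strand: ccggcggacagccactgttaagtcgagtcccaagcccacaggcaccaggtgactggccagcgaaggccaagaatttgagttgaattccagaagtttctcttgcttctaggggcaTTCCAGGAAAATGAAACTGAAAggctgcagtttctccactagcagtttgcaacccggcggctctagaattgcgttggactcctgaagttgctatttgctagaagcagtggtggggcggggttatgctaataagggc
Igtp, chr11:58199306-58199555, plus strand: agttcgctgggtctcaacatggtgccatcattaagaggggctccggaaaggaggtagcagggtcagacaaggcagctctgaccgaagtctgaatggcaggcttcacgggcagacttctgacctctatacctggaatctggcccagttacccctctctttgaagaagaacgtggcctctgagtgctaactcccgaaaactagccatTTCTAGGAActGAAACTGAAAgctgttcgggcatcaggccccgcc
B2m, chr2:122147437-122147686, plus strand: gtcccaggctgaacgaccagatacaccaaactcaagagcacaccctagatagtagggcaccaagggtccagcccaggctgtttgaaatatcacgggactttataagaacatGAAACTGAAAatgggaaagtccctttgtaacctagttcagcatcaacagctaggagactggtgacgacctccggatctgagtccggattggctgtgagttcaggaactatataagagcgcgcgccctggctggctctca
In Ifit1 and Ifit3 the element is present as 2 separate cores on the opposite strand, and in Bst2 a pair of ISRE cores overlap each other and the first of them overlaps the GAS core. In B2m the core begins 139 bases before the start, in Igtp 34 and in Bst2 124 for the nearer of the pair. Of the members tested that have a promoter in the table, 10 carry the ISRE core. On the brightest probe sets medulloblastoma 1 was the highest tumour in 10 of these 10, against 12 of 19 without the core. On their second probe sets, medulloblastoma 4 was the highest for Stat2 and Rsad2, and medulloblastoma 3 for B2m. The dimmest probe set of Rsad2 again had medulloblastoma 1 on top. Above the cerebellum in all 4 tumours were 2 of the 10 and 8 of the 19. For the GAS core the counts ran the other way: medulloblastoma 1 was the highest tumour in 5 of 8 with it and 17 of 21 without it, and 4 of the 8 and 6 of the 21 lay above the cerebellum in all 4 tumours. These are counts over genes that share the same 4 arrays and carry no test. Ifit1, among the 10 with the ISRE core, reached the signal minimum only through medulloblastoma 1. The count of highest tumours was itself added after the values were seen. Whether either core has a part in the pattern was not tested.

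Antigen presentation genes were the group that lay furthest above the cerebellum, with a median difference of 0.91 over the 9 tested, although none was called. Of these 9, 5 were above the cerebellum in every tumour and 2 below it. The median of the group was 1.17, 0.02, 0.89 and 0.59 in medulloblastomas 1 to 4, so in medulloblastoma 2 it was level with the cerebellum. B2m, the light chain of every class I molecule, read 6326, 5272, 6166 and 3977 against 2070 (1.36 ± 0.29, adjusted p = 0.103, limma). Its second probe set also lay above the cerebellum in every tumour, at 4105, 2876, 4923 and 3999 against 1560 (1.31). The highest tumour there was medulloblastoma 3, so the order of the tumours is not settled for B2m. The class I heavy chain genes read 2958, 1840, 2663 and 2507 against 1296 for H2-K1 (0.91 ± 0.29, adjusted p = 0.230, limma) and 3854, 2849, 2543 and 2058 against 1360 for H2-D1 (1.0 ± 0.33, adjusted p = 0.238, limma). On these probe sets none of the 4 tumours overlapped with the cerebellum, and the range among tumours was smaller than the distance of their mean from it. The heavy chain probe sets used are of a kind (x_at) that can bind transcripts of related genes, so H2-K1, H2-D1 and other class I genes cannot be fully told apart. Of the 3 other probe sets of H2-K1, 1 differed by -0.42, and the others by 0.69 and 1.15. The 8 other probe sets of H2-D1 differed by -0.60 to 0.96. The brightest of them that is not x_at read 426, 238, 159 and 36.5 against 111 (0.49), with medulloblastoma 4 below the cerebellum. With the mean of all probe sets the difference was 0.33 for H2-D1 and 0.58 for H2-K1.

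Cd74, the invariant chain that guides class II molecules, is expressed where class II molecules are. It read 1258, 722, 893 and 715 against 259 (1.64 ± 0.36, adjusted p = 0.109, limma), at least 2-fold above the cerebellum in every tumour. Of the 5 class II genes tested outside the members, 4 lay above the cerebellum in every tumour: H2-Eb1 was called higher (724, 507, 544 and 541 against 68.9; 2.59 ± 0.33, adjusted p = 0.0262, limma), H2-Aa read 1194, 516, 729 and 479.9 against 233, and H2-Ab1 read 281, 338, 415 and 436 against 89. Ctss, the protease that trims the invariant chain, was called higher too (2.37 ± 0.23, adjusted p = 0.0197, limma). The remaining gene, H2-DMa, which encodes a chain of the class II peptide exchanger, read 167, 222, 161 and 121 against 175 and overlapped with the cerebellum (-0.07 ± 0.49).

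On their brightest probe sets the genes that load class I molecules did not go with the heavy and light chains. Tap1 and Tap2 encode the transporter that brings peptides into the endoplasmic reticulum. Tap2 read 113, 32.1, 29.5 and 64.6 against 333, at least 2-fold below the cerebellum in every tumour (-2.08 ± 0.76, adjusted p = 0.270, limma). Tap1 read 281, 116, 92.7 and 144 against 201 (-0.38 ± 0.60), above the cerebellum in medulloblastoma 1 and below it in the other 3. Its dimmer probe sets, each with a mean under 100, differed by -0.07, 1.08 and -0.37, so no direction is given for Tap1. Tapbp, the tapasin that holds class I molecules at the transporter, read 978, 604, 952 and 871 against 724 (0.20 ± 0.33), and its second probe set differed by -0.57.

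Psmb8, Psmb9 and Psmb10 encode the catalytic subunits that turn the proteasome into the immunoproteasome. Psmb8 read 289, 34.9, 272 and 174 against 34.1 (1.53 ± 0.89, adjusted p = 0.440, limma), so that medulloblastomas 1, 3 and 4 were well above the cerebellum and medulloblastoma 2 was level with it. Psmb9, just under the signal minimum, had the same order of medulloblastoma 2 below the rest, at 97.7, 34.5, 150.0 and 152 against 60.3. Psmb10 read 436, 525, 498 and 349.9 against 539 and lay below the cerebellum in all 4 tumours by at most 0.58.

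**Figure D4:**
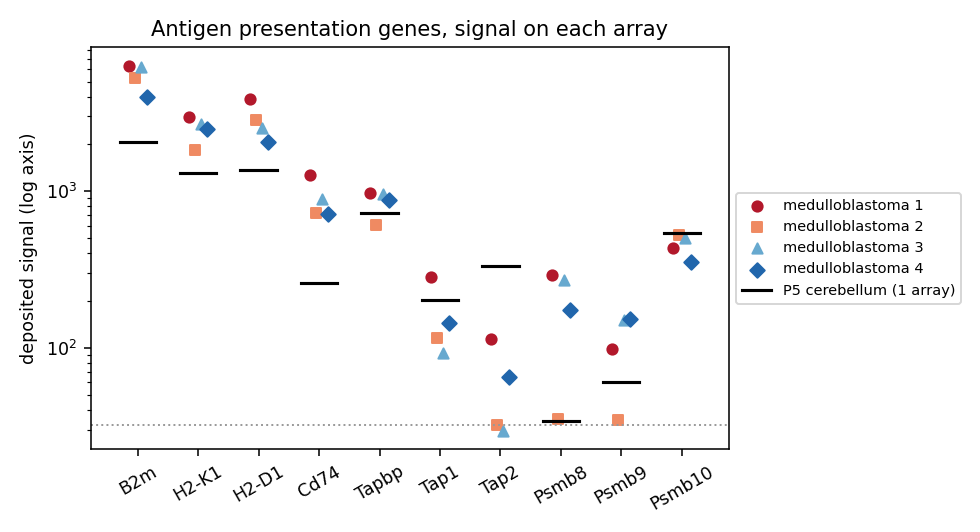
Deposited signal (log axis) of the 10 antigen presentation members on each array; points are the 4 tumours, the black bar is the single P5 cerebellum array, and the dotted line marks the constant of 32. The 4 tumours lie above the bar for B2m, H2-K1, H2-D1, Cd74 and, by a small margin in medulloblastoma 2, Psmb8, and below it for Tap2 and Psmb10.

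The rest of the pathway was read from 8 lists with 89 entries, of which 78 were measured and 64 tested. Of these 64, 2 were called higher, the class II list's H2-Eb1 and Ctss, and 0 lower (limma). At an unadjusted p under 0.05, 4 class II genes, 2 other interferon-induced genes, 1 sensing gene and 1 interferon gene were higher and 0 lower. In medulloblastoma 1 lay the highest tumour signal of 24 of the 64 (37.5%; 30.9% of all genes). The share was larger for the list of other interferon-induced genes, with 12 of 22 (54.5%), and for interferon receptors and their kinases, with 5 of 8 (62.5%). It was 3 of 5 for class II, 2 of 4 for the brakes on the response, 1 of 9 for nucleic acid sensing, 1 of 9 for peptide loading and other class I genes, 0 of 5 for further transcription factors and 0 of 2 for the interferons themselves. At least 2-fold above each other tumour in medulloblastoma 1 were 4 of the 64 (6.25%; 2.08% of all genes).

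Those 4 were Parp9 and Dtx3l, partners in a complex that marks histones in the interferon response, Phf11d and the adaptor gene Ticam1. Parp9 read 597, 219, 248 and 275 against 17 (2.80 ± 0.57, adjusted p = 0.1, limma), and Dtx3l read 449, 163, 146 and 189 against 249.6. Phf11d read 502, 68.9, 116 and 80.9 against 252, and Ticam1 read 306, 44.1, 34.6 and 86.5 against 256. Among the other interferon-induced genes, Herc6 read 578, 77.6, 43.5 and 438 against 554, high in medulloblastomas 1 and 4 and low in medulloblastomas 2 and 3, with an SD among the tumours of 1.5 on the log2 scale. The GTPase gene Irgm2 read 256, 152, 147 and 126 against 28.8 (1.70 ± 0.58, adjusted p = 0.252, limma), above the cerebellum in all 4 tumours. Among the sensing genes, Sting1, the adaptor for cytosolic DNA, read 560.1, 833, 630.4 and 568 against 133 (2.02 ± 0.33, adjusted p = 0.0509, limma), at least 2-fold above the cerebellum in every tumour. Neither type I receptor gene was called: Ifnar1 read 678, 656, 527 and 457 against 669, and Ifnar2 read 419, 409, 179.8 and 252 against 419.6. Jak1 read 1851, 1462, 1798 and 1997 against 2026. Of the 2 interferon genes tested, Ifnb1 read 118, 232, 192 and 217 against 257 and lay below the cerebellum in all 4 tumours. Ifna1 read 68.8, 142, 176 and 194 against 24.7 and lay above it in all 4, lowest of the tumours in medulloblastoma 1 (1.58 ± 0.67, adjusted p = 0.324, limma). Ifng, too dim to test, read at most 60.5 in the tumours against 80.

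Medians of the differences in these lists were 0.58 for the interferons, -0.23 for receptors and kinases, -0.35 for further transcription factors, -0.75 for nucleic acid sensing, 0.18 for the brakes, -0.19 for other interferon-induced genes, 0.14 for peptide loading and other class I genes and 1.70 for class II. All genes tested had a median of -0.07.

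Several members are expressed by immune and vessel cells, so marker lists of those cells were read on the same arrays. Of the 16 measured and tested microglia and macrophage markers, 4 were called higher (among them Lyz2 and C1qa) and 14 lay above the cerebellum in every tumour. Their summed signal was 21797, 28301, 30273 and 27911 in medulloblastomas 1 to 4 against 8939. It therefore moved with B2m, Cd74, Irf8 and the class II genes in the comparison with the cerebellum, and its part in those results was not tested. Among the tumours the sum was lowest in medulloblastoma 1, where most members were highest. Much of that gap came from 1 gene, Lyz2, which read 4794 there and 10855, 9653 and 8148 in medulloblastomas 2 to 4. The median difference of the list from the cerebellum was 1.05 in medulloblastoma 1 and 1.38, 1.5 and 1.4 in the others. In whole tissue, fewer cells of a type and less RNA per cell cannot be told apart.

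Markers of T and NK lymphocytes (13 of 14 measured, 4 tested, 0 called and 1 lower at an unadjusted p under 0.05) summed to 1264 to 1522 in the tumours and 1752 in the cerebellum. Markers of B lymphocytes and dendritic cells (8 of 10 measured, 5 tested, 0 called by limma and 0 past an unadjusted p of 0.05) summed to 1691 in medulloblastoma 1, 807 to 1076 in the other tumours and 1418 in the cerebellum. They were highest in the same tumour as most members, and their part in that pattern was not tested. Neutrophil markers (3 of 7 tested, 0 called at either level) summed to 814 to 946 in the tumours and 675 in the cerebellum, and erythroid markers (2 of 6 tested, 0 called at either level) to 308 to 502 and 853. In no list was any marker at 0 on all arrays.

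Endothelial markers, by contrast, were below the cerebellum in every tumour for 9 of 9 genes tested, with 0 called (limma) and 5 lower at an unadjusted p under 0.05, and summed to 2207 to 3260 against 6597. Markers of meninges and fibroblasts (8 tested, 1 called lower) summed to 5308 to 9612 against 13031. Of these, 5 lay below the cerebellum in every tumour and 1, Pdgfra, above it (1.03). Those of astrocytes and Bergmann glia (8 tested, 2 called lower) summed to 22285 to 26399 against 65322. In that list 5 lay below the cerebellum in every tumour and 2 above it, S100b (1.62) and Slc1a2 (0.71), so it did not fall as a whole.

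**Figure D5:**
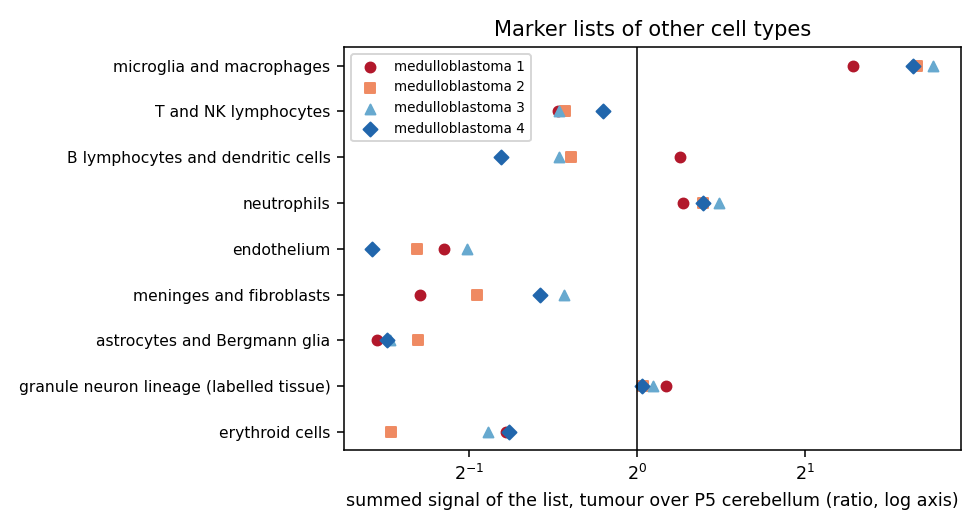
Summed signal of 9 marker lists in each tumour divided by that of the single P5 cerebellum array (log axis); each point is 1 tumour and the vertical line marks equal sums. Microglia and macrophage markers lie right of the line in all 4 tumours, with medulloblastoma 1 the lowest of them, and endothelial markers lie left of it.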

How the data were processed

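Total RNA of 4 medulloblastomas and 1 P5 cerebellum was measured on Affymetrix arrays. The deposited values are intensities on a linear scale, 1 per probe set and array. Per the submitters' processing notes the authors made them with MAS5, and no tool is given for medulloblastoma 3. Their mean, with 2% trimmed from either end, was 500.002 on every array, so no further scaling was done. The number of arrays limits the precision. Detection calls were not used here. Per the labels' protocols RNA was extracted with Trizol; for medulloblastoma 4 the protocol reads only as standard for Affymetrix.

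Arrays were grouped by tissue label, and tumour numbers follow the order of the records. Of 45101 probe sets, 34945 carried 1 gene symbol and 932 several, which were not used. Genes were represented by their brightest probe set. Tumours were compared with the cerebellum by limma 3.58.1 in R 4.3.3 (lmFit, eBayes with a variance trend) on log2(signal + 32), where the mean signal reached 100. P-values were two-sided and adjusted by Benjamini-Hochberg over 14109 genes, with a threshold of 0.05, and values after ± are standard errors from the fit. Spread was estimated from the 4 tumours and assumed equal for the cerebellum. The labels do not say that tumours came from separate animals, so p-values measure the spread between these samples. With 4 arrays against 1, the smallest p of an exact permutation test is 0.2. The fit was tested on simulated data.

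The members, the 8 pathway lists and the 9 marker lists were chosen with earlier results of these data known. Every member is named; the rule for the other lists allowed up to 3 pathway genes a group with large differences or a large spread among tumours and up to 2 genes a marker list. It was not filled in every group, and Ifnar1, Ifnar2, Jak1, Ifnb1, Ifna1, Ifng, Dtx3l, Phf11d, Irgm2, H2-Aa, H2-Ab1, H2-DMa and 3 further granule lineage markers were picked with their values in view. The count of members highest in each tumour was added after the values were seen, as were its alternatives. The 16 alternatives changed the scaling, the added constant or floor, the signal filter, the choice of probe sets, the variance trend and the arrays used, and their effect is given with the closing observations.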

Additional observations from a re-analysis of the deposited data

Results flagged for a closer look

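In 2 of the 40 members measured, 1 tumour lay far from the other 3 by the critical value of Dixon for 4 samples. For Isg20 the tumour was medulloblastoma 1, with a gap of 0.874 of the range (184 against 20.4 to 30.7). For Ifi27 it was also medulloblastoma 1, with a gap of 0.848 of the range (2474 against 294 to 413). Chance gives about 1 such gap in 20 genes, and 5.8% of all genes tested had one, so 5% of the members is no more than that share. The sets are not quite alike, since Isg20 was under the signal minimum that all genes tested reached.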

How the results depend on the processing

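No paired analysis was possible because there is 1 cerebellum array and the labels share no replicate number between groups. Of 541 recomputed differences of single members, 511 kept their direction and their side of the threshold, 23 turned and 7 became called. The count of genes called higher and lower, 44 and 25, was 78 higher with equal medians, 45 lower with the added constant 4 times as large, 14 and 12 with no filter on low signals, 19 and 9 with the mean of all probe sets, 0 and 0 for eBayes without a trend, 837 and 841 on the hmk arrays only, and 21 and 16 for the ken tumours against the cerebellum. With each tumour left out it was 0 to 448 higher and 0 to 383 lower: leaving out medulloblastoma 1 gave 448 and 383, medulloblastoma 2 gave 2 and 0, medulloblastoma 3 gave 10 and 6, and medulloblastoma 4 gave 0 and 0. Members called higher numbered 4 on the hmk arrays and 0 to 3 with each tumour left out (3 without medulloblastoma 1). Members below the cerebellum in every tumour, 5, were 3 after quantile normalization, 2 with equal medians, 2 at a mean signal of at least 200, 13 on the hmk arrays and 5 to 13 with each tumour left out (13 without medulloblastoma 1). The median difference of the members, -0.12, was 0.29 at a mean signal of at least 200. Members at least 2-fold above the other tumours in medulloblastoma 1, 3, were 5 with a constant of 8 and 5 with a floor of 50. Members at least 2-fold below the others in medulloblastoma 2, 3, were 0 with the larger constant, 0 at a mean signal of at least 200 and 1 with the mean of all probe sets. In medulloblastoma 4 they were 2 with equal medians, 0 at a mean signal of at least 200 and 2 without x_at and s_at probe sets. The number highest in medulloblastoma 1, 28, was 17 of 22 at a mean signal of at least 200, where fewer members are tested, and there 3 were highest in medulloblastoma 3. With equal medians 0 were highest in medulloblastoma 2 and 10 in medulloblastoma 3. In medulloblastoma 4, 2 were highest with no filter and 2 with the mean of all probe sets. The cause was not tested for the other changes.

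Differences near 0 turned their sign. Under quantile normalization Xaf1 was 0.00 and Gbp3 0.02. With equal medians Rtp4 was 0.00, Xaf1 0.03 and Gbp3 0.04. Rtp4 was 0.01 with the larger constant and 0.09 with a floor of 50. With the mean of all probe sets Stat2 was 0.30 and Tapbp -0.19. On the hmk arrays Rtp4 was 0.11, Igtp -0.14 and Irgm1 -0.12. In the ken tumours Ddx58 was 0.01, Stat2 0.01, Irf1 0.03 and Gbp3 0.14. With each tumour left out in turn the differences ran from -0.01 to 0.76 for Ifit3, -0.23 to 0.26 for Igtp, -0.79 to 0.28 for Oasl2, -0.58 to 0.45 for Rtp4, -0.45 to 0.16 for Parp14 and -0.37 to 0.01 for Gbp3. The sign turned without medulloblastoma 1 for Ifit3 and Igtp, without medulloblastoma 2 for Oasl2, Rtp4 and Parp14, and without medulloblastoma 3 for Igtp and Gbp3. The median of -0.12 itself has no settled sign, since it lay between -0.23 and 0.29 over these alternatives. Most members have low signals, and with 1 cerebellum array and 1 array a tumour neither the level in normal tissue nor that of any tumour has an error of its own.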

Other observations

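Among the other interferon-induced genes, 8 had a mean signal under 100 and were not compared. For 3 of the 8, Gbp6, Ifi47 and Ccl5, medulloblastoma 1 was the highest tumour, where 29.6% of all genes were highest there with no filter on low signals. The other 5 were highest in medulloblastoma 3 (Ifi204 and Sp100) or medulloblastoma 4 (Cxcl9, Cxcl11 and Ube2l6). The genes described next were chosen after their values were seen. Gbp6, a guanylate-binding protein gene, read 313 there and 16.3, 31.2 and 14.9 in the other tumours, against 16.1 in the cerebellum. Ifi47, a GTPase gene of the Irgm kind, read 228 against 65, 31.5 and 31.7, and 112 in the cerebellum. The chemokine gene Ccl5 read 166 against 10.7, 22.4 and 23.3, but 234 in the cerebellum. The signalling brake Socs1, also under the minimum, read 179, 17, 69.1 and 20 against 166. With single arrays these dim values carry no test.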
